A study of Mus musculus with 6 samples.

Results

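The cytosolic ribosomal protein genes were examined in primary oviductal smooth muscle cells of the mouse on day 2 of pregnancy (D2). Members were the protein-coding rows of the deposited count table whose symbol is Rpl or Rps plus a number, or Rpsa, Rplp0, Rplp1 or Rplp2, without the Rps6k kinases and without symbols holding -ps. The symbol rule found 86 of 54232 rows. Rps19bp1 was left out because it encodes a partner of RPS19 and not a ribosomal protein, and the other 85 were kept. Of these, 52 belonged to the large subunit (46 core genes and 6 paralogues) and 33 to the small subunit (31 core genes and 2 paralogues).

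RNA-seq compared 3 libraries of WT females with 3 of Pbrm1 cKO females, which carry floxed Pbrm1 alleles and a cre under control of the progesterone receptor gene. All females were 8 to 12 weeks old and had been mated. The labels call the controls WT, while a legend of the study names Pbrm1 fl/fl mice, and how many animals went into a library is not stated in the labels. The cre acts in every cell that expresses the progesterone receptor and is not restricted to muscle, and the cells were plated for 4 h and kept for 2 h more after a change of medium. Since the labels leave this unstated, p-values measure only the spread between these libraries, which may be partly technical.

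Each ribosome is built from a small subunit, which reads the mRNA, and a large subunit, which joins the amino acids. Both hold a set of proteins at nearly equal number around ribosomal RNA, so cells make the proteins together, and most of their mRNAs start with a run of pyrimidines (the TOP motif) that lets growth signals set their translation. Ribosomal protein genes have also left many intronless copies (processed pseudogenes) across the genome. A read that fits a gene and its copy equally well was not counted for either in the deposited table.

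For 3 of the members below, a stretch of 90 coding bases is printed with the aligned stretch of an intronless copy. Within the coding sequence only such single differences tell gene and copy apart. Bases outside the coding sequence were not compared, and where the counted reads lie was not tested. The stretches are those with the most differences, in GENCODE M21 transcripts, and capitals mark the bases that differ.
Rps18, coding bases 282 to 371: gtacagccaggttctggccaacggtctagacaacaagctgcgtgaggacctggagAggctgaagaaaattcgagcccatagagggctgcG
Gm10260: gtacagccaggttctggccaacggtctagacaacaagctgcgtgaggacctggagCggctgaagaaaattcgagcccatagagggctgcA
Rps7, coding bases 1 to 90: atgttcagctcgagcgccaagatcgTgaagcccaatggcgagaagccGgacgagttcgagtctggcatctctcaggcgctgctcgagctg
Gm6472: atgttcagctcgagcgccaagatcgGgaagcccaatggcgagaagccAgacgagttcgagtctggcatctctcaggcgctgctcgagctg
Rps3a1, coding bases 171 to 260: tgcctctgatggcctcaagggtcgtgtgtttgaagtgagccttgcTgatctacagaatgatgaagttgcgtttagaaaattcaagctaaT
Rps3a3: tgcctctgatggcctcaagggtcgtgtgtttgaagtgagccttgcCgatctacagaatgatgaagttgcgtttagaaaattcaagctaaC
The whole coding sequence of Rps18 (456 bases) differed from Gm10260 at 4 bases, and the longest identical stretch was 185 bases. Rps7 (582 bases) differed from Gm6472 at 3 bases with 459 identical bases in a row, and Rps3a1 from Rps3a3 at 8 of 791 aligned bases with up to 215 in a row. A read inside such a stretch cannot be given to one gene.

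Transcript copies were frequent among the members. Matching at 95% identity over at least 90% of the copy gave 611 copies, of which 586 were pseudogenes and 25 other genes. The core genes of the large subunit had a median of 5.5 copies and up to 57 (Rpl21). Of all words of 50 bases in the coding sequence, a median of 93.3% in large subunit genes and 88.3% in small subunit genes also stood in another annotated gene, and 19 and 10 genes had no coding word of their own.

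The start regions of 5 members are given for the TOP motif, with 35 bases before and 15 after the RefSeq start of GRCm38.p6. Runs of at least 8 pyrimidines are in capitals.
Rps18, chr17:33955651-33955700, minus strand: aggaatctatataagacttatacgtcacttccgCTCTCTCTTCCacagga
Rpl34, chr3:130730323-130730372, minus strand: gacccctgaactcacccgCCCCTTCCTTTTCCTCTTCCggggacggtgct
Rpl4, chr9:64173352-64173401, plus strand: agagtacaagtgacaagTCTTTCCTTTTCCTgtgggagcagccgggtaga
Rps2, chr17:24720028-24720077, plus strand: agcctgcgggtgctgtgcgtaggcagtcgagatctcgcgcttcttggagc
Rpl26, chr11:68901531-68901580, plus strand: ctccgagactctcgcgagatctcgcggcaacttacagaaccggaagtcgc
Rps18 and Rpl34 had such a run across the annotated start and Rpl4 before it, while the windows of Rps2 and Rpl26 held none. The RefSeq start can differ from the start of the deposited gene. The Rpl26 window ended before the deposited gene began (68901583), and the Rps2 window lay inside the deposited gene (24718116 to 24721929). The Rps18 and Rpl34 windows also lay inside their deposited genes (33951999 to 33956001 and 130726831 to 130730398). These windows therefore need not hold the starts of the counted transcripts. Of the 77 core members, 57 matched a RefSeq entry. A run of 8 pyrimidines within 10 bases of the start was present in 20 of the 57 (35.1%), against 8.71% of all 27025 genes. The letters CCGGAAG on either strand within the 300-base window stood in 24 (42.1%), against 9.93% of all genes. CCGGAAG was nearly as frequent in ribosome assembly factors (19 of 49, 38.8%) and mitochondrial ribosomal protein genes (26 of 69, 37.7%). The pyrimidine run stood in 1 and 5 genes of these 2 lists (2.04% and 7.25%). Among members called higher 8 of 28 held the pyrimidine run and among those not called 12 of 29. CCGGAAG stood in 12 of 28 members called higher and in 12 of 29 not called. These matches describe letters and not bound sites.

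The targeted gene was checked first. Pbrm1 was at 170, 183 and 172 CPM (read counts scaled by library size) in WT and at 43.5, 50.7 and 42.7 CPM in cKO, with no overlap (log2 fold change -1.94, SE 0.064, edgeR adjusted p = 9.1e-11). Library totals ran from 15390818 to 18947947 counts, and 3 counts, taken as the floor, stood for 0.159 to 0.193 CPM, which covers counting error only. Mitochondrially encoded genes held 8.09% ± 0.147 of a WT library and 7.25% ± 0.491 of a cKO library (SD, n = 3).

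The members as a whole took a slightly larger part of the counts in cKO. Their share of all counts was 2.30%, 2.26% and 2.35% in WT and 2.52%, 2.53% and 2.66% in cKO. Large subunit genes went from 1.33% ± 0.0256 to 1.45% ± 0.0454 and small subunit genes from 0.975% ± 0.0198 to 1.12% ± 0.0343 (SD, n = 3). The summed share of the copies went the other way, from 0.225% ± 0.00308 to 0.197% ± 0.00394. This holds for the sum and not for most copies. Of the 137 copies that passed the filter on low counts, 81 had a log2 fold change above 0 and 56 below. Members and copies together were at 2.53% ± 0.0478 in WT and 2.77% ± 0.0834 in cKO. In none of the 3 sums did the groups overlap, and the exact permutation test gave p = 0.1 for each, two-sided, the smallest that 3 against 3 allow.

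Across all genes tested, edgeR called 43.7% in either direction, 21.9% higher and 21.8% lower in cKO, with a median log2 fold change of 0.0016. Against this, 36 of the 77 core members (46.8%) were called, and all 36 were higher. In the large subunit 17 of 46 were higher (37.0%) and the median log2 fold change was 0.11, and in the small subunit 19 of 31 (61.3%), with a median of 0.13. No core member was called lower by edgeR, DESeq2 or limma-voom, and at an unadjusted p under 0.05 edgeR gave 1 lower in the large subunit (Rpl15) and none in the small. The cKO libraries all lay above all WT libraries in 23 large and 25 small subunit genes, against 26.6% of all genes with that order and 26.9% with the reverse, which no core member showed. Leaving out WT replicate 1, WT replicate 2 or cKO replicate 3 left 11, 11 and 10 large subunit genes higher, and leaving out WT replicate 2 left 11 small subunit genes.

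**Figure D1:**
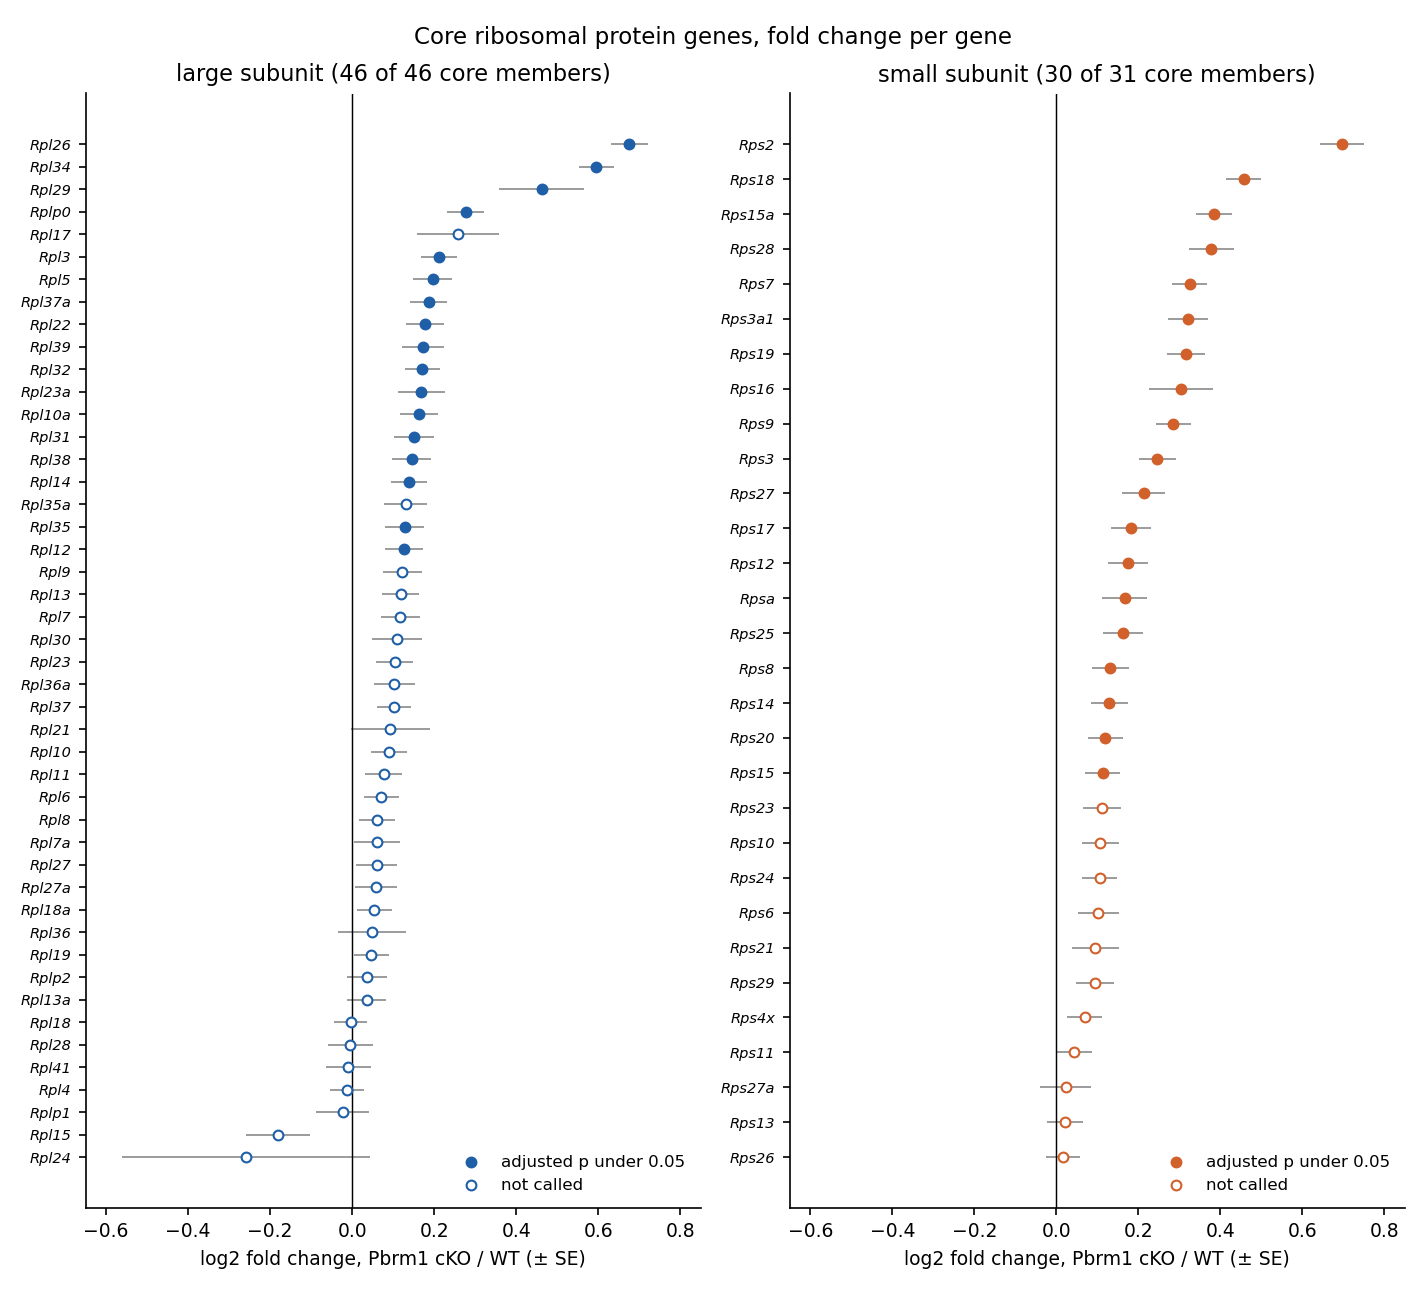
Log2 fold change (Pbrm1 cKO over WT) of each core member with its SE, sorted within the large subunit (left, 46 genes) and the small subunit (right, 30 of 31 genes shown); filled points have an edgeR adjusted p under 0.05. Most genes lie between 0 and 0.2, and Rpl26, Rpl34, Rps2 and Rps18 stand to the right of the others in their subunit.

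The size of the common change was small against the largest single changes. Relative to the WT mean of each gene, the median large subunit member was at a log2 ratio of 0.0026, -0.019 and 0.025 in the WT libraries and 0.064, 0.11 and 0.15 in the cKO libraries. The median small subunit member was at -0.0049, -0.028 and 0.033 in WT and 0.13, 0.12 and 0.20 in cKO. Replicate 3 was the highest of its group in both subunits.

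**Figure D2:**
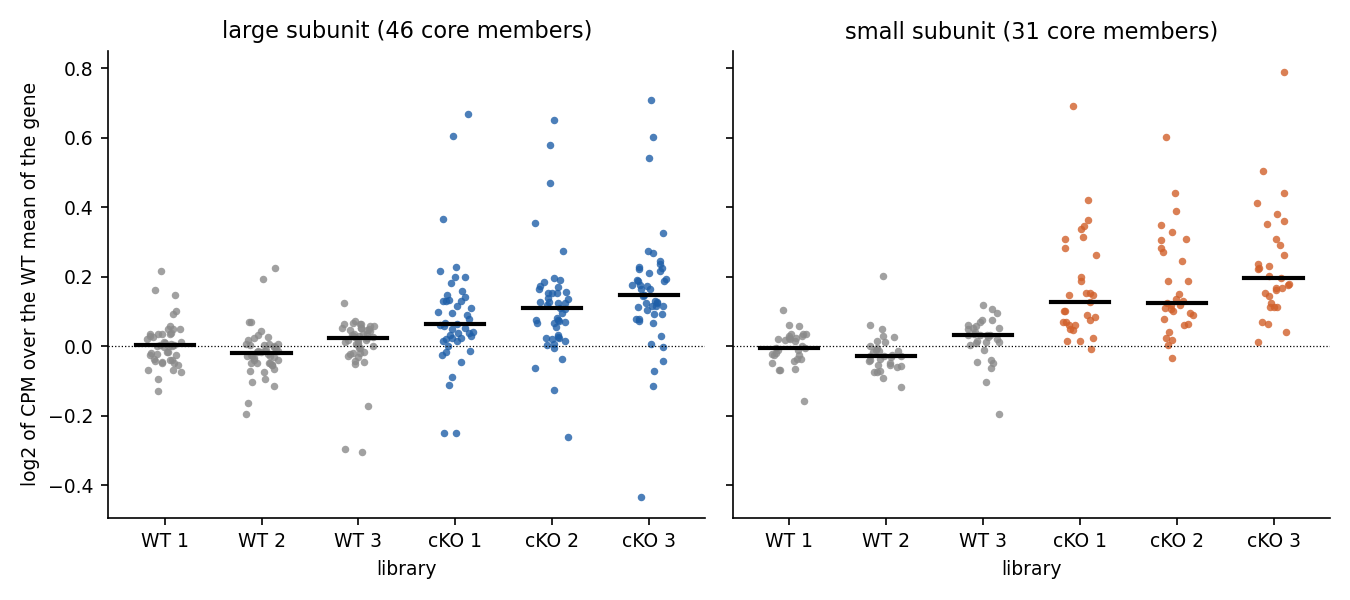
Log2 of the CPM of each core member over its WT mean, in each of the 6 libraries, for the large subunit (left) and the small subunit (right); bars mark the median of the members. All cKO medians lie above all WT medians, while the points of the groups overlap.

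In the large subunit the leading gene was Rpl26, whose protein sits near the exit of the peptide tunnel and also binds p53 mRNA. Rpl26 (chromosome 11, 68901583 to 68906989) was at 189, 193 and 204 CPM in WT and at 310, 307 and 319 CPM in cKO (log2 fold change 0.68, SE 0.045, edgeR adjusted p = 9.7e-08). Rpl34 (chromosome 3, 130726831 to 130730398) was at 194, 204 and 203 CPM in WT and 304, 299 and 304 CPM in cKO (0.60, SE 0.042, adjusted p = 1.7e-07). Both groups were well apart for these genes, with little spread inside a group.

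Rpl29, with 32 copies, was measured at a low level, at 10.6, 8.61 and 10.4 CPM in WT and 12.7, 13.6 and 14.3 CPM in cKO (log2 fold change 0.46, SE 0.10, adjusted p = 0.0026). Rplp0, the base of the stalk to which elongation factors bind, rose from 928 ± 28.0 to 1125 ± 37.7 CPM (0.28, SE 0.045, adjusted p = 0.00023). Rpl3, part of the peptidyl transferase region, rose from 502 ± 16.3 to 582 ± 11.7 CPM (0.21, SE 0.043, adjusted p = 0.0013). The other 12 large subunit genes called higher had log2 fold changes between 0.13 and 0.20.

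Among the 29 large subunit genes that were not called, the most abundant were Rpl4, Rpl8 and Rplp1. Rpl4, which lines the peptide tunnel, was at 1708, 1714 and 1764 CPM in WT and 1674, 1732 and 1736 CPM in cKO. Rpl8, close to the peptidyl transferase center, had a mean of 1106 ± 33.3 CPM in WT and 1154 ± 32.7 CPM in cKO, and Rplp1, a stalk protein, 813 ± 77.6 and 800.0 ± 50.7 CPM. The groups overlapped in all of these, with log2 fold changes of -0.01, 0.06 and -0.02. Rpl24 was counted at 0.703 to 1.02 CPM in WT and 0.643 to 0.796 in cKO, and none of its coding words of 50 bases was its own, whereas its copies held 36.9 CPM in WT and 39.6 in cKO.

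In the small subunit Rps2, a protein of the mRNA entry, was the leading gene. Rps2 (chromosome 17, 24718116 to 24721929) was at 108, 102 and 107 CPM in WT and at 171, 161 and 183 CPM in cKO (log2 fold change 0.70, SE 0.053, edgeR adjusted p = 3.1e-07). Rps18, at the head of the subunit near the tRNA of the growing chain, was at 219, 214 and 214 CPM in WT and 289, 293 and 306 CPM in cKO (0.46, SE 0.043, adjusted p = 1.9e-06). Rps15a was at 306, 315 and 328 CPM in WT and 402, 415 and 421 CPM in cKO (0.38, SE 0.044, adjusted p = 1.2e-05). In each of the 3 the lowest cKO library was above the highest WT library.

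Rps28 rose from 77.0 ± 4.64 to 100.2 ± 4.02 CPM (log2 fold change 0.38, SE 0.055, adjusted p = 9.6e-05) and Rps7, which also binds MDM2, from 333 ± 8.50 to 417 ± 6.85 CPM (0.33, SE 0.042, adjusted p = 3.4e-05). The other 14 small subunit genes called higher had log2 fold changes between 0.11 and 0.32. Rps4x and Rps24 were among the most abundant of the 12 not called, with log2 fold changes of 0.07 and 0.11, and their cKO libraries all lay above their WT libraries.

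Paralogues, which differ from their core partner in sequence, were not called. Rpl22l1, a paralogue of Rpl22 that is prominent in development, was at 46.3 ± 2.51 CPM in WT and 47.8 ± 2.16 in cKO. Rpl7l1, a factor of assembly, was at 242, 245 and 253 CPM in WT and at 225, 236 and 234 CPM in cKO (log2 fold change -0.09, adjusted p = 0.11). Rps27l, a p53 target, was at 148 ± 9.33 and 158 ± 6.87 CPM, and Rpl36al at 17.1 ± 1.78 and 17.0 ± 0.0821 CPM. Rpl10l, Rpl3l, Rpl39l and Rps27rt held at most 5 counts in a library and did not pass the filter on low counts.

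The levels per length of the members were compared as CPM per kb of deposited exon length, which covers every annotated exon and so understates genes with long rare exons. In WT the large subunit median was 106 and the small subunit median 104 CPM per kb. The highest large subunit levels were those of Rplp1 (1629 ± 156), Rpl4 (861 ± 15.2) and Rpl8 (814 ± 24.5). Among the highest small subunit levels were those of Rps15 (561 ± 15.5) and Rps14 (449 ± 17.0). The lowest were Rpl24 (0.843 ± 0.153) and Rpl21 (3.64 ± 0.162) in the large and Rps19 (47.8 ± 2.03) in the small subunit. The WT libraries of Rplp1, Rpl4 and Rpl8 did not overlap, nor did those of Rps15 and Rps14, whereas Rps19 overlapped with Rps15a, the next in order (50.4 ± 1.75). Across the 77 core members the level per length had a Spearman correlation of -0.41 with the share of shared words, and the log2 fold change one of -0.10 (n = 77 genes of the same 6 libraries, a description).

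Of the 611 copies, 137 passed the filter on low counts, and these moved in both directions. 15 were higher (10.9%) and 21 lower (15.3%) in cKO, with a median log2 fold change of 0.04. Both shares were below those of all genes tested (21.9% higher and 21.8% lower). 9 of the 21 were under 10% of their WT level, 8 of them copies of small subunit genes. Of the 36 copies called in either direction, 12 lost their call in at least 1 fit that left out a library. Gm10036, a copy of Rpl11, was called higher through cKO replicate 2 alone (19, 233 and 21 counts in cKO), and it was named after its values were seen.

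The copies with the largest differences in CPM were Gm10260, Gm8730, Gm6472, Rps3a3, Gm14513 and Rpsa-ps10, and all 6 were lower. Gm10260, an intronless gene annotated as protein coding (chromosome 13, 97760072 to 97760632), was at 107, 117 and 118 CPM in WT and at 0.787, 0.530 and 0.322 CPM in cKO (log2 fold change -7.66, SE 0.13, edgeR adjusted p = 1.1e-13). Rps3a3 (chromosome 13, 108670603 to 108671397) was at 43.7, 43.0 and 43.9 CPM in WT, and held only 3, 4 and 1 counts in the cKO libraries. Gm6472 (chromosome X, 152909505 to 152910155) was at 52.9, 46.7 and 47.6 CPM in WT and at 3.54, 4.46 and 3.67 CPM in cKO (-3.65, SE 0.099, adjusted p = 1.4e-11). These copies were thus nearly lost from every cKO library and present at a steady level in every WT library.

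Gm14513, a copy of part of Rps3, went from 43.9 to 2.59 CPM (log2 fold change -4.10, SE 0.13, adjusted p = 5.9e-11). Gm8730, a copy of Rplp0, went from 129 to 81.4 CPM (-0.67, SE 0.047) and Rpsa-ps10 from 76.2 to 42.0 CPM (-0.86, SE 0.052). These last copies kept 62.9% and 55.1% of their WT level in cKO.

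Members whose copies fell were among those called higher. The 14 core members with at least 1 lower copy were all called higher (median log2 fold change 0.30), and 22 of the 63 without one (median 0.11). Both calls come from the same libraries and the same reads, so the first does not stand as evidence for the second. In Rps18 the gene gained 80.4 CPM and its copies lost 114, in Rpsa 31.2 against 33.1 and in Rps28 23.1 against 28.0. Rpsa was not called without WT replicate 1 (0.13), WT replicate 2 (0.14), cKO replicate 1 (0.18) or cKO replicate 3 (0.13). In Rpl26, Rpl34 and Rps2 the gene gained 117, 102 and 65.6 CPM while the copies lost 14.8, 5.26 and 9.41 CPM. The first group gained no more than its copies lost, and the second gained several times more.

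**Figure D3:**
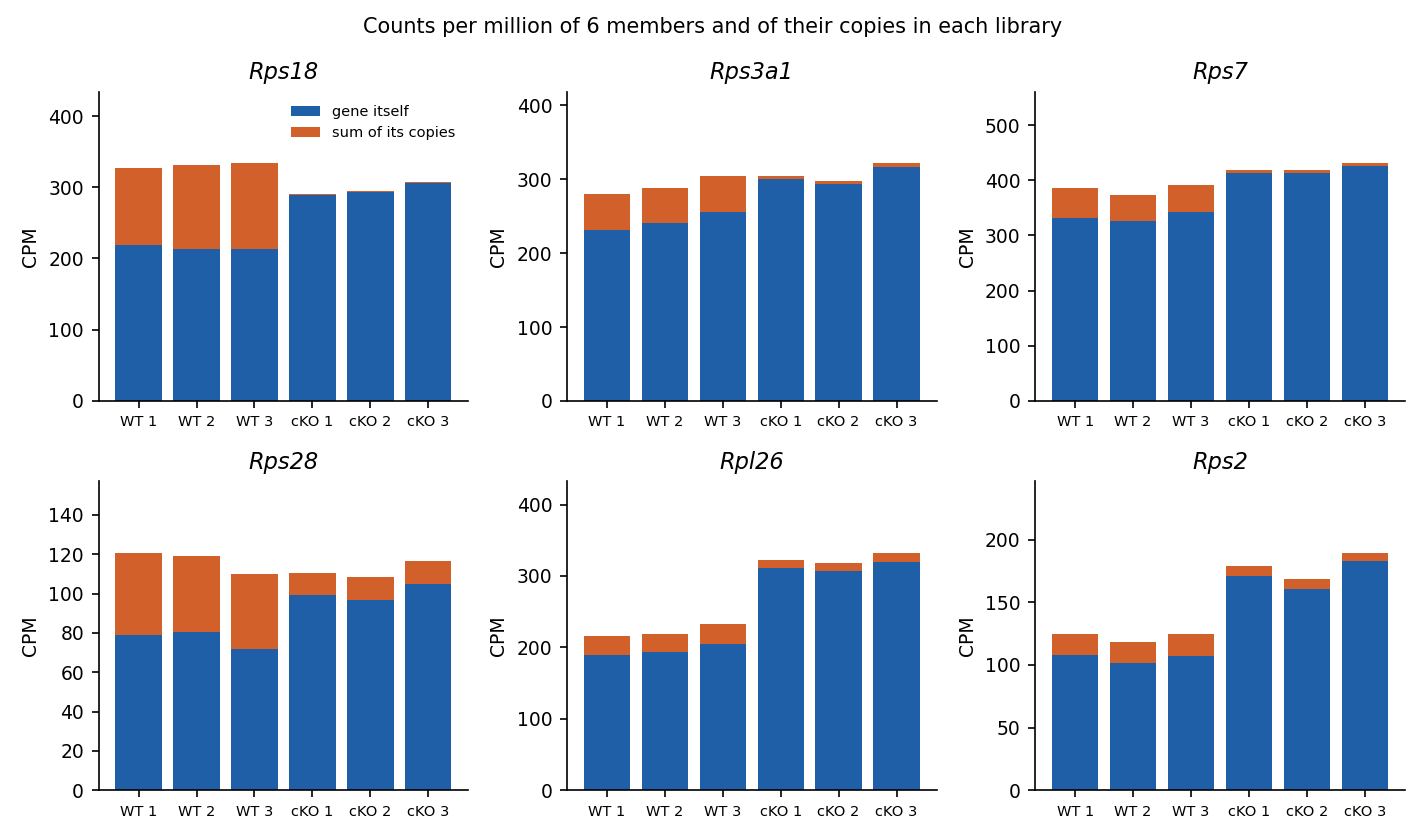
CPM of 6 members (blue) and of the sum of their copies (orange) stacked for each of the 3 WT and 3 cKO libraries. The stacked height of Rps18 is lower in every cKO library, that of Rps28 and Rps3a1 overlaps between the groups, and that of Rps7, Rpl26 and Rps2 is higher in every cKO library.

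The deposited counts of the copies were also added to their gene and the table was fitted again. Reads that fit a gene and its copy equally well are missing from these sums too. The sums are therefore not the full level of a gene and its copies. In this fit 22.1% of all genes were called higher. In the large subunit 20 of 46 genes were then higher and the median log2 fold change was 0.11, and in the small subunit 15 of 31 were higher and 1 lower, with a median of 0.11. Rps18 with its copies was at 327, 331 and 333 CPM in WT and 291, 295 and 307 CPM in cKO, so that its change turned from 0.46 to -0.15 (SE 0.042, adjusted p = 0.0097). Rps28, Rpsa and Rps3a1 were no longer called, at -0.06 (adjusted p = 0.36), -0.01 (0.92) and 0.08 (0.18), nor was Rps20 (0.11, 0.052).

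Other members kept their increase with the copies added. Rpl34 was at 0.55 (adjusted p = 3.2e-07), Rpl26 at 0.54 (6.5e-07), Rps2 at 0.54 (2.1e-06) and Rps15a, whose copies were not called lower, at 0.38 (1.3e-05). With copies matched at 90% identity Rps15a was at 0.27 (edgeR adjusted p = 0.00026), while Rpl34 and Rpl26 were at 0.55 each. Rpl15 changed in the other direction, from -0.18 (adjusted p = 0.077) to 0.24 (0.0049), as its copies went from 22.4 to 53.1 CPM while the gene went from 88.5 to 78.1. Rpl13, Rpl17 and Rps24 were also called once the copies were added. How the authors' aligner placed these reads was not tested.

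**Figure D4:**
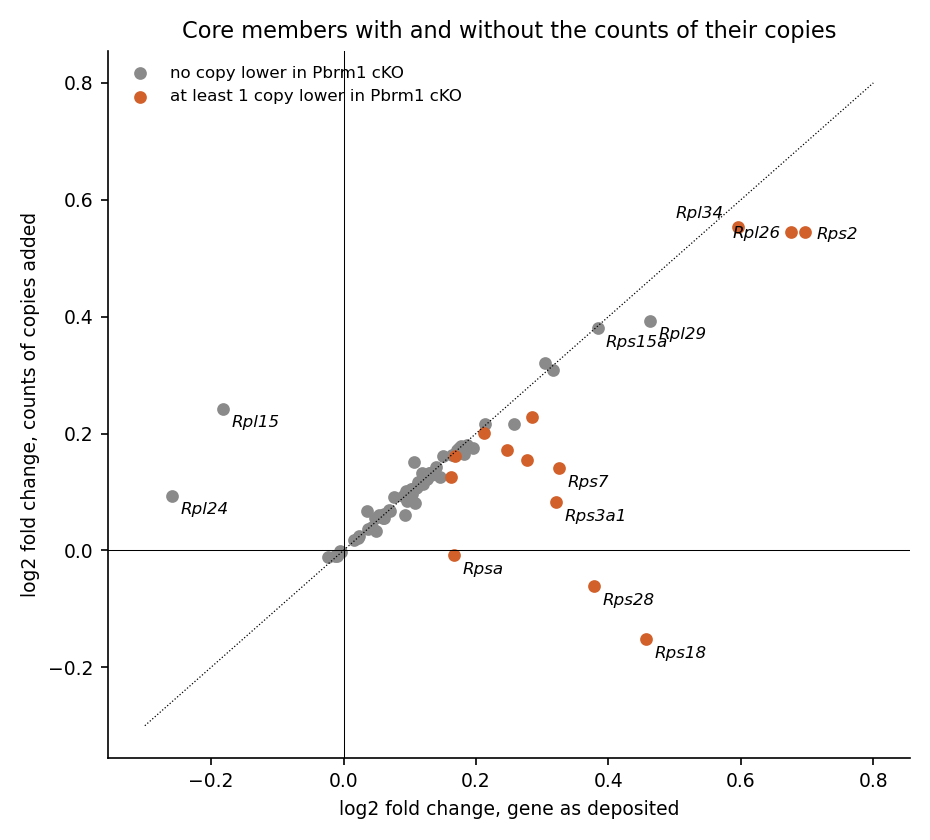
Log2 fold change of the 77 core members as deposited (horizontal axis) and with the counts of their copies added (vertical axis); orange points have at least 1 copy that was lower in cKO, and the dotted line marks equal values. Rps18, Rps28 and Rpsa fall below 0 on the vertical axis, and Rpl26, Rpl34 and Rps2 stay near 0.55.

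In the lists of RNA polymerase I, ribosome assembly and translation factors, genes were called lower more often than higher, where the core members were called higher. The RNA polymerase I list (enzyme subunits and factors that transcribe ribosomal RNA) had 8 of 16 genes lower by edgeR, against 21.8% of all genes, and a median log2 fold change of -0.17. None was higher by edgeR, DESeq2 or limma-voom, also at an unadjusted p under 0.05. Taf1c, Cd3eap and Polr1e fell by 0.41, 0.40 and 0.33 on the log2 scale. Of the ribosome assembly factors, which process ribosomal RNA and join proteins to it, 48 of 59 were lower and 1 higher, with a median of -0.25.

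Ncl, the abundant nucleolar protein nucleolin, was at 943, 1140 and 982 CPM in WT and 668, 759 and 535 CPM in cKO (log2 fold change -0.64, SE 0.10, adjusted p = 0.00016). Noc4l and Mphosph10, of the small subunit processing machinery, fell by 0.57 and 0.53. Nop10, a protein of the pseudouridine-guiding particles, was the 1 that rose (0.20, adjusted p = 0.019), but was not called without WT replicate 1 (0.18) or 2 (0.15). In Ncl, Noc4l and Mphosph10 the groups did not overlap.

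Among the translation factors 17 of 44 (38.6%) were lower and 3 (6.82%) higher, against 21.8% and 21.9% of all genes. Their median log2 fold change was -0.10. Pabpc4, a poly(A)-binding protein, fell by 0.38, and Eif3a and Eif3b, core subunits of an initiation factor, by 0.35 each, although Eif3b overlapped between the groups. Eif1b, Eif3i and Eef1b2 rose by 0.25, 0.16 and 0.15. Eif3b was not called without WT replicate 2 (-0.20), cKO replicate 1 (-0.36) or cKO replicate 3 (-0.21), nor Eif3i without WT replicate 1 (0.15), WT replicate 2 (0.14) or cKO replicate 3 (0.14). Without cKO replicate 2, 5 translation factors were higher.

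The list of regulators of ribosome synthesis and of TOP mRNAs had 8 of 25 genes (32.0%) lower and 5 (20.0%) higher. Of all genes, 21.8% were lower and 21.9% higher. Mycn, Larp1b and Mycl, the first and last of the Myc family and Larp1b a relative of the TOP-binding protein Larp1, fell by 0.75, 0.67 and 0.64. Mxd4 and Mxi1, antagonists of Myc, rose by 0.54 and 0.39, and Eif4ebp1, which holds back cap-dependent initiation, rose by 0.39. Mycl was at 1.29 to 2.83 CPM in all libraries, and was not called without WT replicate 2 (-0.53), WT replicate 3 (-0.67), cKO replicate 2 (-0.53) or cKO replicate 3 (-0.53).

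SnoRNA host genes carry guide RNAs for ribosomal RNA in their introns. Of the 14 tested, 4 were higher (28.6%) and 2 lower (14.3%), against 21.9% and 21.8% of all genes. Snhg6 was at 16.4, 15.6 and 17.4 CPM in WT and 37.3, 32.7 and 31.8 CPM in cKO (log2 fold change 1.05, SE 0.081, adjusted p = 3.4e-07). Snhg18 and Gas5, the second itself a transcript with a TOP start, rose by 0.64 and 0.44, and Snhg1 and Snhg3 fell by 0.31 and 0.25. Snhg3 was not called without WT replicate 1 (-0.23), WT replicate 3 (-0.25) or cKO replicate 3 (-0.20).

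Of the genes of nucleolar stress and the p53 response, 3 of 11 (27.3%) were lower and 2 (18.2%) higher, against 21.8% and 21.9% of all genes. Zmat3, Cdkn1a and Mdm2, targets of p53, fell by 0.49, 0.26 and 0.16, and Phlda3 and Bax, also targets, rose by 0.21 and 0.15. Mdm2 lost its call without WT replicate 3 (-0.14) or cKO replicate 1 (-0.13), and Bax without WT replicate 1 (0.10), WT replicate 2 (0.16), cKO replicate 1 (0.14) or cKO replicate 2 (0.14). The mitochondrial ribosomal protein genes, which build the separate ribosome of that organelle, had 16 of 77 genes (20.8%) lower, near the 21.8% of all genes, and 6 higher, with a median of -0.06. Mrps2, Mrps26 and Mrpl34 fell by 0.36, 0.34 and 0.33, and Mrpl48, Mrps33 and Mrpl33 rose by 0.45, 0.36 and 0.28. Leaving out WT replicate 3 or cKO replicate 1 left 10 lower. Mrpl34 and Mrps33 were at low levels and each lost its call when 1 of 4 libraries was left out, with values from -0.33 to -0.23 and from 0.31 to 0.34.

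Fau, which encodes a ribosomal protein fused to a ubiquitin-type domain, lay outside the symbol rule. Fau was at 150, 129 and 142 CPM in WT and 142, 141 and 143 CPM in cKO, and was not called by edgeR, DESeq2 or limma-voom.

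**Figure D5:**
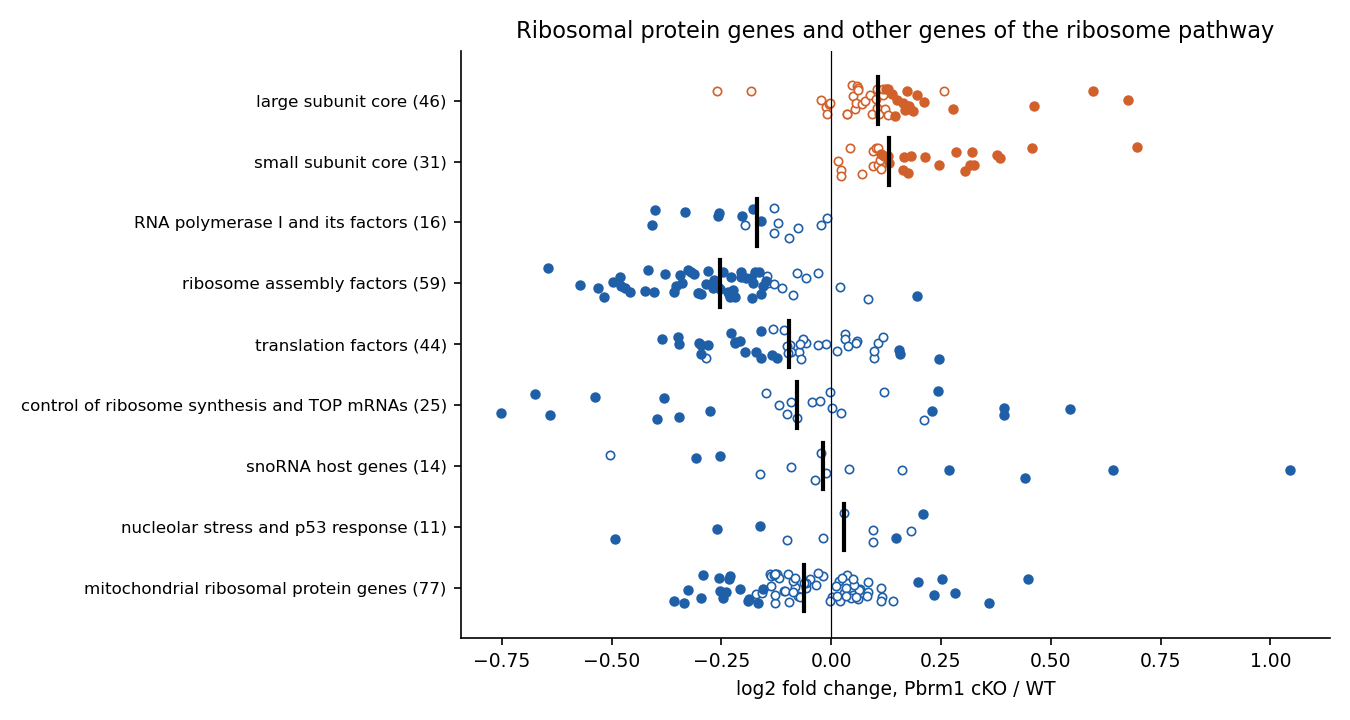
Log2 fold change (Pbrm1 cKO over WT) of the core members by subunit (orange) and of the genes of 7 other lists (blue), with the number tested in brackets; filled points have an edgeR adjusted p under 0.05 and black bars mark the median. The medians of the subunits are at 0.11 and 0.13, those of RNA polymerase I and assembly factors at -0.17 and -0.25.

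Markers of other cells also differed between the groups, and in bulk RNA fewer cells of a type and less RNA per cell cannot be told apart. For the counts below, 21.9% of all genes tested were higher and 21.8% lower. The summed level of 12 leukocyte markers was 741 to 785 CPM in WT and 1135 to 1246 in cKO, with 11 of 12 higher, and that of 12 fibroblast markers 1340 to 1353 and 2271 to 2431 CPM, with 8 of 11 tested higher and 2 lower. The 12 smooth muscle markers summed to 4032 to 4125 CPM in WT and 5034 to 5685 in cKO, 7 higher and 1 lower, so the labelled cell type was present in all libraries. The 10 epithelial markers stood at 1112 to 1209 and 1349 to 1505 CPM (7 higher), the 10 endothelial at 404 to 428 and 345 to 363 CPM (3 higher, 1 lower), and the 6 mesothelial at 216 to 225 and 167 to 170 CPM (3 lower). The 5 red blood cell markers summed to 1.93 to 2.13 CPM in WT and 0.0643 to 0.281 CPM in cKO, around the floor. Only 1 of them was tested, and it was lower (log2 fold change -3.57). No marker was at 0 in every library, and the part of these cells in the values of the members was not tested.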

How the data were processed

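Raw counts per gene, deposited by the authors in 1 table, were used for 6 libraries. The header names featureCounts 1.6.4 on exons of GENCODE M18, reverse-stranded with default options, under which reads that fit several places or genes are dropped; the labels' processing notes name cutadapt, HISAT2 and GRCm38.p5. The exon length is also as deposited. Symbols, biotypes and transcripts came from GENCODE M21 of the same build.

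Genes passing filterByExpr (15376) were tested in R 4.3.3 by the quasi-likelihood test of edgeR 4.0.16 (TMM normalization, all 6 libraries, Benjamini-Hochberg adjustment over all genes tested, threshold 0.05). CPM are scaled by the same factors, and values are mean ± SD (n = 3). DESeq2 1.42.0 and limma-voom (limma 3.58.1) were alternatives. The edgeR script was tested on simulated data. Within a group, every pair of libraries was further apart than counting error allows (chi-square per gene 1.28 to 1.60). Copies were matched with BLAST 2.17.0, and shared words were searched in annotated transcripts. Start regions came from RefSeq.

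The members, lists and tests were chosen with earlier results of these data known. Named were Pbrm1, Fau, the paralogues tested, and per subunit up to 5 core genes that changed most each way, the 3 highest per length and the 3 most abundant not called; the 6 copies with the largest difference in CPM; and up to 3 genes per pathway list and direction. Other members are named where a copy changed their call. Some genes that this rule names are not reported here.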

Additional observations from a re-analysis of the deposited data

How the results depend on the processing

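The median log2 fold change stayed above 0 under every alternative, between 0.094 and 0.12 for large and 0.11 and 0.15 for small subunit genes, and between 0.09 and 0.13 and between 0.11 and 0.17 with a library left out. The number of large subunit genes higher (17) ranged from 10 to 22, and of small subunit genes (19) from 11 to 23, with a library left out; at an adjusted p under 0.01 they were 9 and 12. Rpl15 was called lower (1 gene) without a filter, with the replicate block, or with a library left out (0 to 1). With copies added at either identity, 1 small subunit gene was lower, Rps18 at -0.15; Rps28 was at -0.061 and -0.060 and Rpsa at -0.0078 and -0.0082 (95% and 90% identity).

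Replicate numbers were shared by both groups, but same-numbered libraries did not deviate together (correlations -0.024, 0.035 and 0.093). The replicate block gave 21 large and 21 small subunit genes higher, and 6908 calls against 6723 in all.

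Copies called higher (15) were 9 with DESeq2 and 7 at the stricter threshold, and copies called lower (21) were 10 with at least 10 counts in every library. That filter removes copies near 0 in cKO before any test, so the lower number does not measure how stable the calls were. Assembly factors lower (48) ranged from 36 to 49, or 37 to 49 with a library left out, and those higher were 0 at 0.01 and 0 to 1 with a library left out. Translation factors higher (3) were 6 by library size only and 2 to 5 with a library left out, and those lower (17) were 11 at 0.01. SnoRNA host genes lower (2) were 1 with DESeq2 and at 0.01, and 1 to 2 with a library left out. Of the p53 list, the number higher (2) was 1 with DESeq2, upper quartile scaling and 0.01, and 1 to 3 with a library left out. Mitochondrial ribosomal genes lower (16) were 9 at 0.01 and 10 to 17 with a library left out. The share of the copies fell by 0.0317 percentage points outside mitochondrial counts. With words of 100 bases the medians were 77.6% and 70.7%. The cause of these changes was not tested. In 14 of 68 named genes the call changed in 1 or more of the 15 alternatives that kept copies apart, and no direction of a called gene reversed in these. Low counts limit Rpl24 (10 to 19 in a library) and the copies near 0, where a few counts set the fold. Rpl29 held 161 to 257 counts in a library.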
